A study of Homo sapiens with 12 samples.

Results

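Plasminogen activators turn the plasma protein plasminogen into plasmin, a protease that dissolves fibrin and cleaves matrix proteins. Urokinase (uPA, encoded by PLAU) is held at the cell surface by its receptor uPAR (PLAUR), tissue-type plasminogen activator (tPA, PLAT) acts mainly on fibrin, and serpins, inhibitors that trap proteases in a covalent complex, hold both in check. Renal tubular epithelium makes urokinase, and the balance of activators and inhibitors is a known part of the handling of fibrin and matrix in the kidney. The 6 genes described here, out of 58278 genes listed, were chosen by symbol, and each symbol had 1 row. The choice of these 6 genes was made with earlier results of these data known. They are the activators PLAU and PLAT, the receptor PLAUR, and the serpins SERPINE2 (protease nexin-1, an inhibitor of thrombin and urokinase), SERPINB2 (plasminogen activator inhibitor-2) and SERPINB8 (a relative of SERPINB2 that is better known as an inhibitor of furin). Of the 6 genes, 5 passed the filter on low counts that left 24342 genes for testing, and SERPINB2 did not.

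RNA was sequenced from HK2 cells, an immortalized human proximal tubular epithelial cell line, in 6 groups of 2 biological replicates. All groups were grown in medium with foetal bovine serum and hydrocortisone, and they comprised cells without treatment (Ctrl), cells stimulated during 3 h with 5 ng/mL of TNF-α (TN), and cells that had the same stimulation and a short-chain fatty acid (SCFA) for 24 h. The SCFA was 15 mM propionate added before TNF-α (PRTN) or after it (TNPR), or 3 mM butyrate added before (BUTN) or after it (TNBU). Every SCFA group therefore also had TNF-α, and SCFA alone, or TNF-α followed by as long a culture without an SCFA, is not analysed here, so that in the groups given an SCFA after TNF-α the order of addition and the time since TNF-α cannot be told apart. The doses of the SCFAs differ, and their values are given side by side without a test between them.

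The libraries held 27269986 to 33851130 expected counts (median 30545923), the TMM scaling factors ran from 0.913 to 1.06, and mitochondrial genes took 5.86% to 9.46% of the counts. The replicates of every group differed by more than counting error (chi-square per gene 3.17 in BUTN to 18.1 in TNBU). Markers of the labelled cell type were mixed, with levels in CPM (counts scaled to a common library total with the TMM factors). Of 7 kidney epithelial markers, KRT8 and KRT18 stood at 354 CPM or more in every library. PAX8 stood at 362 to 414 CPM in the 4 libraries without an SCFA and 128 to 160 CPM in the 8 with one. EPCAM stood at 55.1 to 58.1 CPM and 13.3 to 23.2 CPM. KRT19 rose, from 4.47 to 5.15 CPM without an SCFA to 82.3 to 121 CPM with one. CDH1 and PAX2 stayed at or below 0.294 CPM without an SCFA, and CDH1 stood at 8.37 to 14.4 CPM with one. The summed level of the 7 was 1508 to 1582 CPM without and 1882 to 2473 CPM with an SCFA. Against TN, 5 of the 7 were called higher in PRTN, BUTN and TNBU and 4 in TNPR, and 2 were called lower in each. The summed level of the mature proximal tubule markers was 181 to 224 CPM without and 71.4 to 94.4 CPM with an SCFA, most of it GGT1. GGT1 was the only 1 of the 7 tested that was called lower in each SCFA group against TN. In each of these groups 5 of the 7 were called higher, among them AQP1 (0.359 to 0.721 CPM without and 5.98 to 15.1 CPM with an SCFA). SLC34A1 and SLC22A6 stayed at or below 0.0867 CPM in all libraries. Of 27 marker genes of all kinds 22 were tested, of which 16 to 17 were called higher and 4 lower in each SCFA group against TN, where 23.1% to 25.0% of all genes tested were called higher and 14.8% to 16.9% lower. The summed level of 5 leukocyte markers was 0.782 to 1.40 CPM without and 2.70 to 4.71 CPM with an SCFA. Of these, MS4A1 stood at 0 in all 12, CD3E at no more than 0.0640 CPM and PTPRC at no more than 0.152 CPM. CD14 stood at 0.633 to 1.00 CPM without and 2.13 to 3.53 CPM with an SCFA, and CSF1R at 0.144 to 0.394 CPM and 0.350 to 1.22 CPM. CD14 and CSF1R, the 2 that were tested, were both called higher in each SCFA group against TN. The 3 endothelial markers summed to 0.143 to 0.287 CPM without and 2.18 to 3.61 CPM with an SCFA, and the 3 fibroblast markers to 6.78 to 9.42 CPM and 33.1 to 61.7 CPM, most of it LUM. Levels of many markers thus differed between libraries with and without an SCFA, in both directions, and their part in the results was not tested.

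Positions are from GRCh38 and GENCODE release 44. PLAU (ENSG00000122861.15) spans chr10:73909177-73917496 on the forward strand and overlaps the antisense gene C10orf55 over 7528 bases. PLAUR (ENSG00000011422.11) lies at chr19:43646095-43670547 and SERPINE2 (ENSG00000135919.12) at chr2:223975045-224039318, both on the reverse strand. SERPINB2 (ENSG00000197632.8, chr18:63871692-63903888) and SERPINB8 (ENSG00000166401.14, chr18:63970029-64019779) lie 66.1 kb apart, both on the forward strand, in a cluster of 10 SERPINB genes that runs from SERPINB5 to SERPINB8. SERPINB8 shares its first part with HMSD on the same strand. The libraries were stranded, but the sources used here do not give the strand setting of the counting, so counts of PLAU and C10orf55 may mix. Group means of C10orf55 were 0.453 to 1.60 CPM, and those of PLAU 48.5 to 337 CPM. C10orf55 was called lower in each SCFA group against TN, as PLAU was. Whether their counts mix was not tested.

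Promoter sequences from RefSeq (GRCh38.p14), matched by symbol for PLAU, PLAUR, SERPINE2, SERPINB2 and SERPINB8, show how these genes differ ahead of their start sites. The 250 bases before each start were searched on both strands for the AP-1 motif TGANTCA, for the GC box GGGCGG and for the NF-κB consensus, none of which overlapped another in these windows. Of 35116 promoters of that length, 6.6% held an AP-1 motif, 42.6% a GC box and 5.2% the NF-κB consensus. The longer stretches shown are those of PLAU and SERPINB8, the genes with the deepest falls under SCFAs below, and each ends where the next annotated exon of the gene begins. That of PLAU lies inside the annotated gene, before a RefSeq start that is downstream of the outermost one, and overlaps no exon of PLAU. Positions are counted back from the start site, and capitals mark the GC boxes of PLAU (from -66, -51 and -40) and the AP-1 motif of SERPINB8 (from -185).
PLAU, chr10:73910882-73911103, forward strand: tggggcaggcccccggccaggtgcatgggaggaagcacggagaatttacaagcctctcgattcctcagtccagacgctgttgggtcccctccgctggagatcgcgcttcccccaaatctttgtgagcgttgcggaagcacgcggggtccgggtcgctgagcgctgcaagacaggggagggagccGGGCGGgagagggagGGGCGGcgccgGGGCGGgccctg
SERPINB8, chr18:63969831-63970028, forward strand: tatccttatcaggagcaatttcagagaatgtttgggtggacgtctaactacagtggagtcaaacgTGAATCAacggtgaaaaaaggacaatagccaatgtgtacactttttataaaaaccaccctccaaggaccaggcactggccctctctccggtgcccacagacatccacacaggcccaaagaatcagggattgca

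The AP-1 matches of the other promoters, with 30 bases around each, stood at -28 in SERPINB8 (a further match), at -186 in PLAUR and at -102 in SERPINB2. The stretches of SERPINB8 and PLAUR shown here lie in annotated exons of these genes. That of SERPINB2 lies inside the annotated gene and overlaps no exon of it. SERPINB2, with counts near 0 in all libraries, held the same motif as genes with many more counts. Use of these sites was not tested.
SERPINB8, chr18:63970041-63970070, forward strand: atcgaacggttcTGAGTCAtctgccggaag
PLAUR, chr19:43670338-43670367, reverse strand: atcacaactccaTGAGTCAgggccgagcca
SERPINB2, chr18:63887591-63887620, forward strand: tgagtaaaatgtTGAATCActcaaaggaca

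A second RefSeq start of PLAU had none of the motifs in its window, and the 2 windows of SERPINE2 held GC boxes but no AP-1 motif. None of these windows held the NF-κB consensus. Which start the reads came from was not measured, and the matches are a description of letters.

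TNF-α alone raised 4 of the 5 tested genes. PLAU, PLAT, SERPINE2 and SERPINB8 rose by 1.54-fold to 1.78-fold in TN against Ctrl, and the receptor PLAUR, at 1.46-fold, stayed just under the fold threshold. A gene was called where its fold change was over 1.5 and its Benjamini-Hochberg adjusted p under 0.05 in limma-voom, a linear model of log2 counts fitted to all 12 libraries and adjusted over all 24342 genes. Of all genes tested, 0.764% were called higher and 0.534% lower in this comparison. The median log2 fold change was 0.81 over the 5 genes and -0.01 over all genes. The 5 genes were chosen with earlier results of these data known, so these counts and medians are no independent test of the set.

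**Figure D1:**
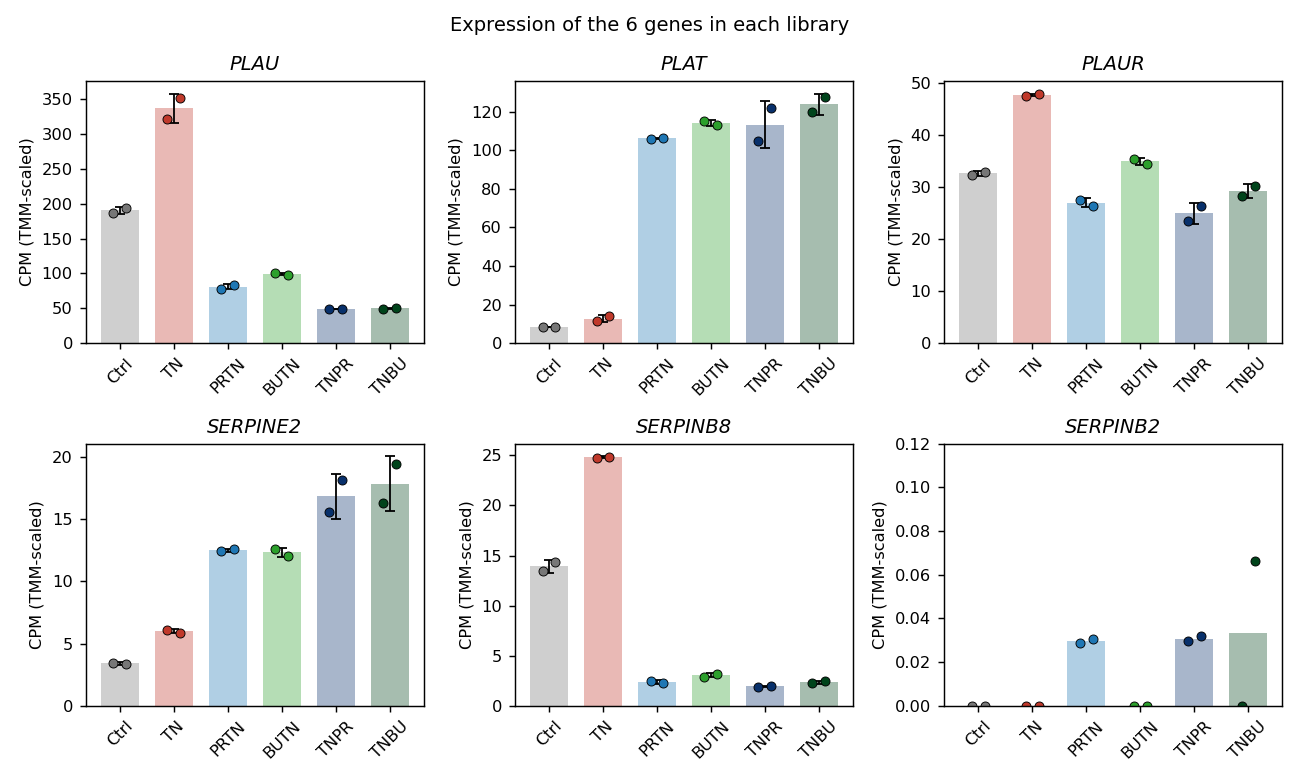
Level of each of the 6 genes in CPM scaled with TMM factors (vertical axis from 0, a separate scale for each gene) in the 6 groups, with a point per library, a bar at the mean of 2 and the SD as error bar (left out for SERPINB2, which had 0 to 2 counts per library). PLAU and SERPINB8 were highest in TN and lowest with an SCFA, and PLAT was above 100 CPM in all 8 SCFA libraries and below 14 CPM in the other 4.

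PLAU stood at 187 and 194 CPM in the Ctrl libraries and 322 and 352 CPM in the TN libraries. With propionate and butyrate before TNF-α it stood at 78.2 and 83.1 CPM (PRTN) and 100.5 and 98.2 CPM (BUTN). With the SCFA after TNF-α it stood at 48.7 and 48.3 CPM in TNPR and 49.6 and 50.6 CPM in TNBU. No 2 groups overlapped, and all 8 SCFA libraries lay below both untreated libraries. Urokinase mRNA thus rose with TNF-α by 1.77-fold (log2 fold change 0.82, SE 0.06, adjusted p = 1.12e-05, limma-voom) and was lower than in TN by 4.17-fold in PRTN, 3.39-fold in BUTN, 6.93-fold in TNPR and 6.71-fold in TNBU (adjusted p 2.15e-10, 8.24e-10, 7.06e-11 and 5.37e-11, limma-voom). It was also below Ctrl, by 1.92-fold in BUTN to 3.92-fold in TNPR.

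PLAT (ENSG00000104368.17, chr8:42174718-42207709, reverse strand) moved opposite to PLAU in the SCFA groups. It stood at 8.24 and 8.28 CPM in Ctrl and 11.6 and 13.9 CPM in TN. In the SCFA libraries it stood at 106 and 106 CPM in PRTN, 115 and 113 CPM in BUTN, 105 and 122 CPM in TNPR, and 120 and 128 CPM in TNBU. All SCFA libraries lay far above the other 4, and the PRTN libraries fell within the range of TNPR. The rise over TN was 8.34-fold, 8.96-fold, 8.87-fold and 9.73-fold in PRTN, BUTN, TNPR and TNBU (adjusted p 4.82e-10, 6.77e-10, 4.51e-10 and 4.13e-10, limma-voom), and over Ctrl it was 12.8-fold to 14.9-fold. The rise with TNF-α alone was small (log2 fold change 0.62, SE 0.14, adjusted p = 0.0279, limma-voom) and lost its call without Ctrl replicate 1 (adjusted p 0.178), Ctrl replicate 2 (0.142) or TN replicate 2 (log2 fold change 0.49, adjusted p 0.170).

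The receptor gene PLAUR, whose product binds urokinase at the cell surface through a lipid anchor, moved least of the 5 in TN against Ctrl and in each SCFA group against TN. It stood at 32.3 and 33.0 CPM in Ctrl and 47.7 and 48.0 CPM in TN. The SCFA groups had 27.6 and 26.4 CPM in PRTN, 35.5 and 34.5 CPM in BUTN, 23.5 and 26.4 CPM in TNPR, and 28.4 and 30.3 CPM in TNBU. TN was the highest group without overlap, and BUTN was the only SCFA group with both libraries above Ctrl. The difference between TN and Ctrl was 0.55 on the log2 scale (SE 0.07, adjusted p = 0.00113, limma-voom), under the fold threshold. Against TN, PLAUR fell by 0.82 in PRTN, by 0.94 in TNPR and by 0.70 in TNBU on the log2 scale (SE 0.07 each, adjusted p 8.38e-07, 2.82e-07 and 3.60e-06, limma-voom), while the log2 difference in BUTN, -0.45 (adjusted p = 1.40e-04), was under the fold threshold. With library size alone as the scaling the TNBU difference was -0.51 and was not called. Against Ctrl no SCFA group was called, with log2 differences of -0.27, 0.10, -0.39 and -0.15 in PRTN, BUTN, TNPR and TNBU.

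SERPINE2, which encodes a serpin that binds to the cell surface and matrix, rose in every treated group. It stood at 3.47 and 3.33 CPM in Ctrl and 6.11 and 5.89 CPM in TN. It stood at 12.4 and 12.6 CPM in PRTN and 12.6 and 12.1 CPM in BUTN, and at 15.6 and 18.1 CPM in TNPR and 16.3 and 19.4 CPM in TNBU. The SCFA libraries were all above TN, and TN was above Ctrl. The rise over TN was 2.08-fold in PRTN, 2.05-fold in BUTN, 2.79-fold in TNPR and 2.97-fold in TNBU (adjusted p 2.12e-05, 2.89e-05, 8.15e-07 and 5.80e-07, limma-voom). The rise with TNF-α alone (log2 fold change 0.81, SE 0.18, adjusted p = 0.0252, limma-voom) rested on 101 and 93 counts in the Ctrl libraries, and was lost when either Ctrl library (adjusted p 0.158 and 0.151) or either TN library (0.139 and 0.0859) was left out.

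SERPINB8 had the largest fall of the 6 genes. It stood at 13.5 and 14.4 CPM in Ctrl and 24.7 and 24.9 CPM in TN. It stood at 2.50 and 2.27 CPM in PRTN, 2.91 and 3.21 CPM in BUTN, 1.90 and 1.98 CPM in TNPR, and 2.24 and 2.45 CPM in TNBU, from 62 to 111 counts per library. Every SCFA library lay below both Ctrl libraries, and the TN libraries lay above all others. TNF-α alone raised SERPINB8 by 1.78-fold (log2 fold change 0.83, SE 0.08, adjusted p = 1.06e-04, limma-voom). Against TN it was lower by 10.3-fold in PRTN, 8.07-fold in BUTN, 12.7-fold in TNPR and 10.5-fold in TNBU (adjusted p 9.07e-10, 1.53e-09, 8.83e-10 and 1.46e-09, limma-voom), and against Ctrl by 4.53-fold to 7.11-fold.

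SERPINB2, the other serpin named as an inhibitor of urokinase, was hardly detected. Its counts were 0 in 7 libraries, among them all of Ctrl, TN and BUTN, and 1 in each library of PRTN and TNPR, 0 and 2 in those of TNBU. The limit that a count of 0 allows was 0.0867 to 0.112 CPM over the libraries, so a change of SERPINB2 was not detectable at this depth.

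In counts of calls, 2 genes were higher (PLAT and SERPINE2) and 3 lower (PLAU, PLAUR and SERPINB8) in PRTN, TNPR and TNBU against TN, and in BUTN 2 were higher and 2 lower (PLAU and SERPINB8). Calls were frequent in these comparisons: 23.9% of all genes tested were called higher and 16.7% lower in PRTN, 23.1% higher and 14.8% lower in BUTN, 24.9% higher and 16.9% lower in TNPR, and 25.0% higher and 16.5% lower in TNBU. The 4 comparisons share the TN libraries, so they are not independent of each other. Against Ctrl, 2 genes were higher (PLAT and SERPINE2) and 2 lower (PLAU and SERPINB8) in each SCFA group, beside 22.6% of all genes higher and 16.9% lower in PRTN, 22.0% higher and 14.9% lower in BUTN, 23.6% higher and 16.8% lower in TNPR, and 23.6% higher and 16.5% lower in TNBU, again with shared Ctrl libraries. The median log2 difference from TN over the 5 genes was -0.82, -0.45, -0.94 and -0.70 in PRTN, BUTN, TNPR and TNBU, where the median of all genes was 0.09, 0.08, 0.12 and 0.09. In a whole culture, fewer cells that express a gene and less RNA per cell cannot be told apart.

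**Figure D2:**
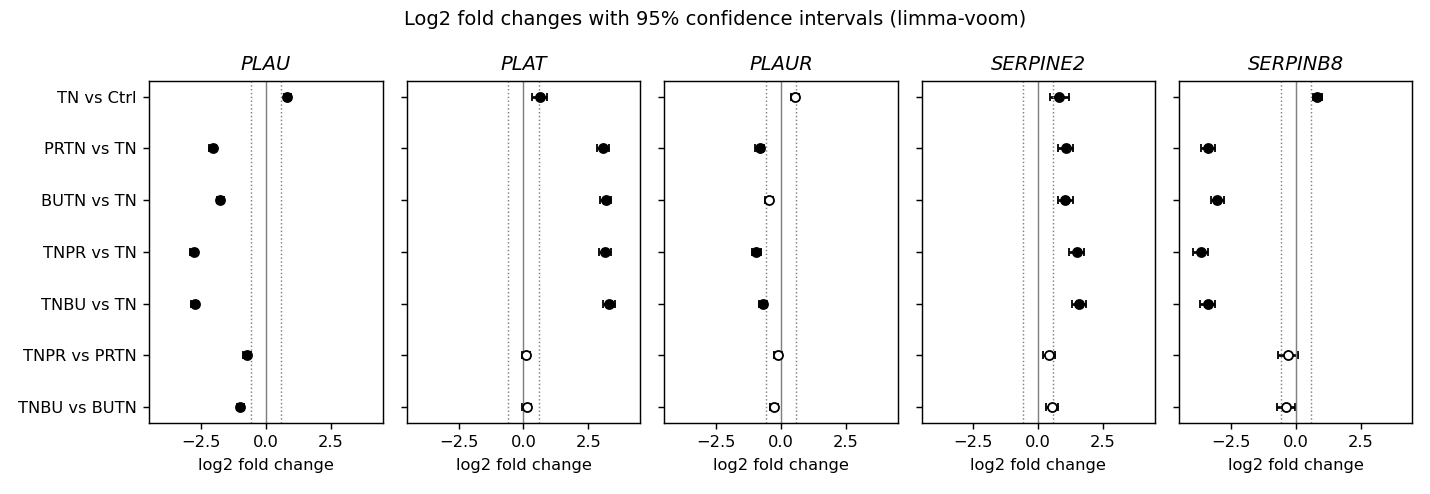
Log2 fold change (horizontal axis) of the 5 tested genes in TN against Ctrl, in each SCFA group against TN, and in SCFA added after against before TNF-α, with 95% confidence intervals from limma-voom. Filled points were called, dotted lines mark a fold of 1.5, and PLAU was the only gene of the 5 called in both comparisons of timing.

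Timing was asked directly by setting TNPR against PRTN and TNBU against BUTN, with the same agent and dose on both sides. Few genes differed there, with 0.0534% of all tested genes called higher and 0.107% lower for propionate and 0.0945% and 0.173% for butyrate, and PLAU was among the lower ones in both. PLAU was 1.66-fold lower with propionate after than before TNF-α (log2 fold change -0.73, SE 0.07, 95% interval -0.88 to -0.59, adjusted p = 4.90e-04, limma-voom). For butyrate it was 1.98-fold lower (log2 fold change -0.99, SE 0.07, 95% interval -1.13 to -0.84, adjusted p = 3.18e-05, limma-voom). SERPINE2 was 1.34-fold (95% interval 1.15 to 1.57, adjusted p = 0.160, limma-voom) and 1.44-fold (1.23 to 1.69, adjusted p = 0.0416) the level of the earlier addition, and neither passed the call. Without TNBU replicate 1 the SERPINE2 difference for butyrate was 0.64 on the log2 scale with an adjusted p of 0.0109 (limma-voom), and was called.

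The other genes were not called for timing. The log2 difference of PLAT was 0.09 (95% interval -0.08 to 0.26) for propionate and 0.12 (-0.05 to 0.28) for butyrate. That of PLAUR was -0.12 (-0.28 to 0.05) and -0.25 (-0.41 to -0.10), and that of SERPINB8 was -0.29 (-0.67 to 0.08) and -0.38 (-0.73 to -0.03). The intervals end short of a 1.5-fold change for PLAT and PLAUR and extend past it for SERPINB8.

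The ratio of the activators within a library follows from these values and does not depend on scaling between libraries. Counts were divided by the length of the union of all exons, in kilobases, since levels of different genes compare only per length. On that scale PLAT stood at 0.0165 ± 0.0004 of PLAU in Ctrl and 0.0143 ± 0.0009 in TN (SD, n = 2). With an SCFA the ratio was 0.499 ± 0.019 in PRTN, 0.436 ± 0.002 in BUTN, whereas it was 0.887 ± 0.0997 in TNPR and 0.937 ± 0.029 in TNBU. Against TN the ratio was thus 34.9, 30.4, 61.9 and 65.4 times as high, folds on which the length has no bearing. Which of the activators stood higher does depend on it, since per kilobase of the longest transcript (3.462 kb for PLAT and 2.658 kb for PLAU, against 7.770 kb and 2.949 kb for the exon union) the ratio was 1.01 in PRTN, 0.881 in BUTN, while it reached 1.79 in TNPR and 1.90 in TNBU. With 2 libraries against 2 an exact two-sided permutation test cannot go below p = 0.333, and none was run on the ratios.

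**Figure D3:**
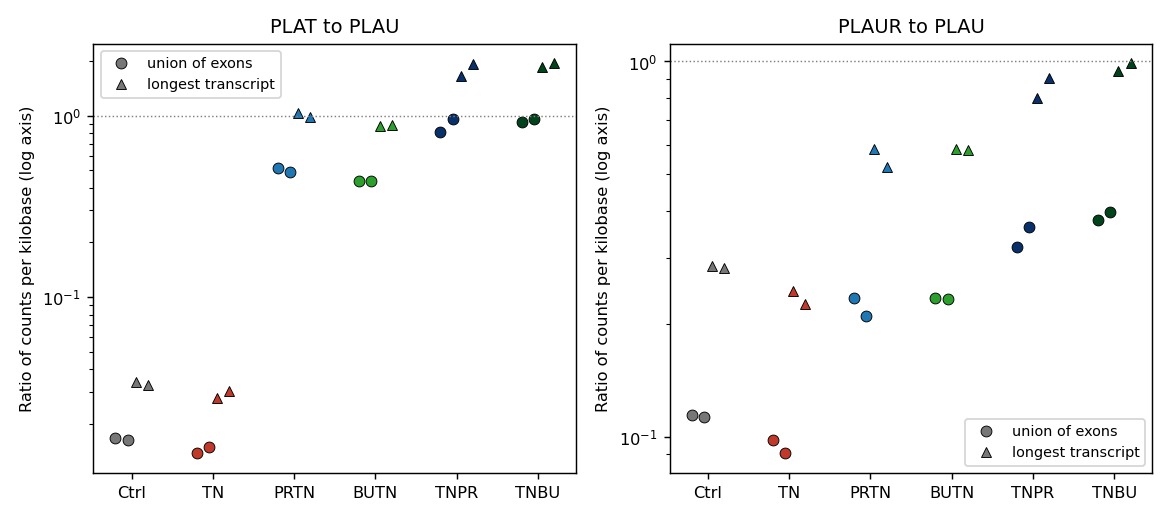
Ratio of counts per kilobase (log axis) of PLAT to PLAU and of PLAUR to PLAU in each of the 12 libraries, with circles for the exon union and triangles for the longest transcript as length. Both ratios were higher in all 8 SCFA libraries than in the Ctrl and TN libraries, and the groups given the SCFA after TNF-α lay above those given it before.

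Other ratios were taken per kilobase of exon union in the same way. PLAUR stood at 0.0942 of its ligand PLAU per kilobase in TN, at 0.222 in PRTN, 0.233 in BUTN, and at 0.341 in TNPR and 0.387 in TNBU. SERPINE2 stood at 0.412 of PLAT in TN and at 0.0939 to 0.129 of it in the SCFA groups.

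A list of 32 further genes of the plasmin system, 28 of them tested, was counted in the same way. Against TN, 9 of the 28 were higher and 5 lower in PRTN, in BUTN the numbers were the same, and they were 9 and 8 in TNPR and 9 and 4 in TNBU. Of all genes tested, 23.9% were higher and 16.7% lower in PRTN, 23.1% higher and 14.8% lower in BUTN, 24.9% higher and 16.9% lower in TNPR, and 25.0% higher and 16.5% lower in TNBU. The median log2 difference of the list was -0.15, -0.01, -0.24 and -0.20 in these groups, and that of all genes 0.09, 0.08, 0.12 and 0.09. In TN against Ctrl, 1 of the 28 was called higher and 0 lower, beside 0.764% and 0.534% of all genes tested. The median log2 difference there was 0.01 over the list and -0.01 over all genes. For timing 0 of the 28 were called for either SCFA.

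The 2 largest changes among the named genes of this list were in inhibitors. SERPINA5, the protein C inhibitor, which also acts on urokinase, stood at 0.0717 to 0.275 CPM in Ctrl and TN and at 4.14 to 5.71 CPM with an SCFA (log2 differences from TN 4.37 to 4.61). SERPINI1, neuroserpin, an inhibitor of tPA, stood at 0.484 to 0.645 CPM and 5.60 to 9.27 CPM (3.43 to 3.91). TFPI2, a Kunitz-type inhibitor of plasmin and other proteases, stood at 81.4 to 118 CPM and 222 to 342 CPM (1.15 to 1.54). All 3 were called higher in the 4 SCFA groups against TN.

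Membrane proteases that can activate pro-urokinase rose too. ST14, matriptase, stood at 1.19 to 2.37 CPM without and 4.57 to 6.21 CPM with an SCFA (log2 differences from TN 1.91 to 2.20), and HPN, hepsin, at 0.782 to 1.72 CPM and 2.69 to 3.53 CPM (1.53 to 1.77), both called in all 4 groups. Their means were lower in TN (1.24 and 0.983 CPM) than in Ctrl (2.25 and 1.70 CPM), though not called. Against Ctrl the log2 differences of HPN were 0.72 to 0.97. F12, the other tested gene the list holds for activation of plasminogen or pro-urokinase, is named here after its values were seen. It was called lower in TNPR against TN (-0.62) and in all 4 groups against Ctrl (-0.74 to -0.95). Plasminogen itself (PLG) stood at no more than 0.213 CPM in any library, with at most 5.71 counts, and was called in no comparison.

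Among receptors that clear urokinase and its inhibitor complexes or pair with uPAR, LRP1, an endocytic receptor, was called higher in all 4 SCFA groups against TN (log2 differences 1.23 to 1.54, 243.6 to 360.2 CPM with an SCFA). IGF2R, which binds uPAR, was called lower in PRTN, BUTN and TNPR (-0.64, -0.62 and -0.66) and stood at -0.53 in TNBU. The integrin subunits ITGAV (-0.87 to -1.33) and ITGA3 (-0.76 to -0.99) were called lower in all 4 groups, and their partner ITGB1 in none (-0.16 to -0.23). Of the plasminogen-binding surface proteins, ANXA2 and its partner S100A10 were not called (-0.27 to -0.52 and 0.06 to -0.33). ENO1 was called lower in TNPR alone (-0.59), just past the fold threshold. It stood close to that, at -0.54, -0.48 and -0.55, in PRTN, BUTN and TNBU. The remaining gene of this kind on the list, PLGRKT, a plasminogen receptor named here after its values were seen, was called higher in PRTN, TNPR and TNBU (0.66, 0.96 and 0.98) and stood at 0.56 in BUTN.

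**Figure D4:**
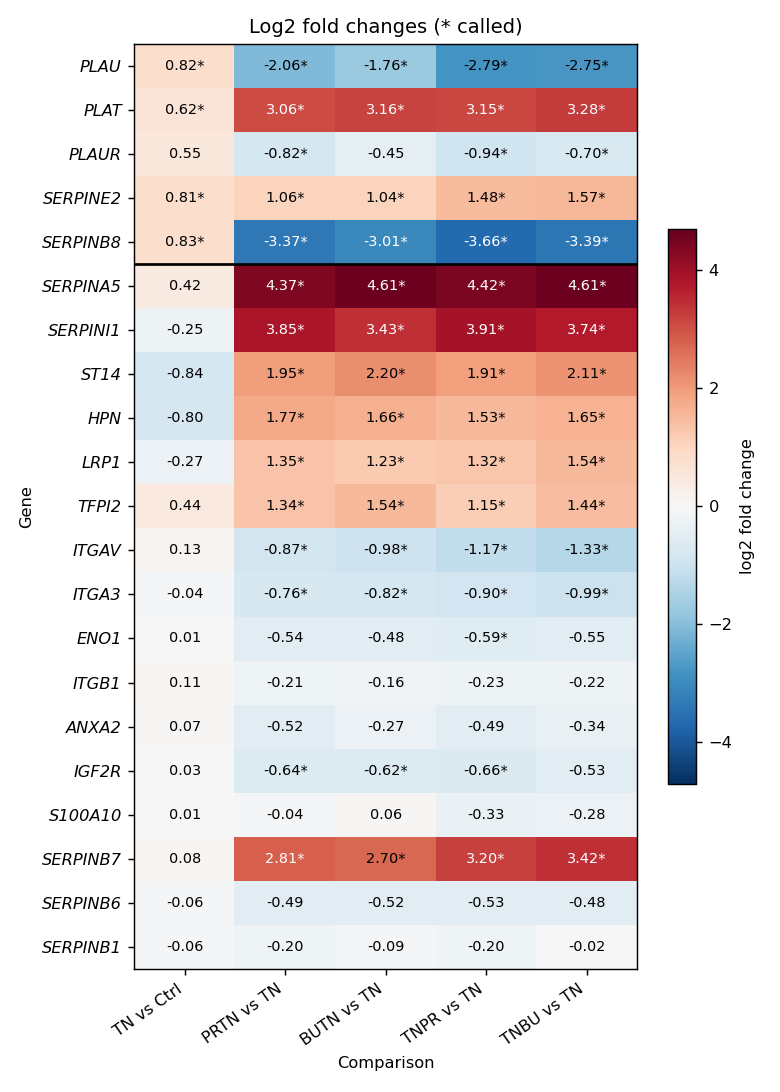
Log2 fold changes (colour and printed value) of the 5 tested genes, above the line, and of the named genes of the plasmin system and the clade B serpins, below it, in TN against Ctrl and in each SCFA group against TN, with an asterisk for a call. SERPINA5, SERPINI1 and SERPINB7 rose with each SCFA beside PLAT, and ITGAV and ITGA3 fell with each.

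SERPINB2 and SERPINB8 belong to clade B of the serpins, most of which lack a classical secretion signal. Of 11 other clade B genes 5 were tested. In every SCFA group against TN, 1 of them, SERPINB7, was called higher and 0 were called lower. Of all genes tested, 23.1% to 25.0% were called higher in these comparisons and 14.8% to 16.9% lower. The log2 differences of SERPINB7 were 2.81 in PRTN, 2.70 in BUTN, and 3.20 and 3.42 in TNPR and TNBU. It stood at 0.596 to 0.790 CPM without and 4.38 to 9.85 CPM with an SCFA. SERPINB7 lies in the same chromosome 18 cluster as SERPINB8, which moved the opposite way. SERPINB6 (-0.48 to -0.53) and SERPINB1 (-0.02 to -0.20), which lie together on chromosome 6 and stood at 54.0 to 90.6 CPM and 28.9 to 36.4 CPM, were not called in any of the 4.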

How the data were processed

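The authors aligned stranded mRNA reads to GRCh38 and estimated expected counts per gene with RSEM on GENCODE release 26; the deposited expected counts were not normalized, and 19.3% are not whole. The submitters' processing notes name STAR 2.6.1a and FastQC 0.11.5. The labels' general treatment text names thapsigargin and JQ1, but each library's own label names TNF-α and the SCFA, and the latter was used.

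Counts were tested unrounded with limma 3.58.1 (voom, R 4.3.3) and TMM factors from edgeR 4.0.16, with a mean for each of 6 groups. Genes needed a geometric mean of the count plus 1, minus 1, of at least 1, which removed 33936. There were 11 contrasts. In simulated counts of 24342 genes for TN against Ctrl, limma-voom recovered 83% of 2-fold and 94% of 4-fold changes. It made 3 false calls among the unchanged genes. Changes under 2-fold and the SCFA comparisons were not simulated. The limit set on a count of 0 was 3 counts. This limit covers counting error only, whereas the intervals of fold changes rest on the spread between libraries.

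All 6 genes are named, and of the lists the up to 8 called genes with the largest changes and at least 1 CPM plus up to 6 genes above 10 CPM in every group. Some items are not reported here. The genes and lists were chosen with earlier results of these data known. Alternatives were edgeR and DESeq2 1.42.0 on rounded counts, other scalings, filters and thresholds, a fit of the groups compared, a replicate block and leaving out each library.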

Additional observations from a re-analysis of the deposited data

Results flagged for a closer look

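PLAU was 0.73 lower on the log2 scale (log2 fold change -0.73) with propionate after than before TNF-α, and the difference for butyrate was -0.99. Both were picked out because the effect of the later and of the earlier addition differed in the direct test between the SCFA groups. They are the results of that test and add nothing to it. The time since TNF-α differs with the order of addition, and these cannot be told apart.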

How the results depend on the processing

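Among the log2 fold changes of the 5 tested genes, no called value changed direction under the alternatives tried. The ratios have no call, and they depend on the length used. That of PLAT to PLAU was 0.499, 0.887 and 0.937 in PRTN, TNPR and TNBU by exon union. By longest transcript it was 1.01, 1.79 and 1.90 in these groups. The count of called genes in TN against Ctrl, 4, was 2 in a fit of only the groups compared, 0 at a fold over 2 and 2 to 4 with each library left out, where PLAT and SERPINE2 lost their calls. For timing, the count of 1 for propionate and for butyrate was 0 at a fold over 2, and that for butyrate was 1 to 2 with each library left out. PLAT in TN against Ctrl also lost its call with library size alone (log2 fold change 0.56) and with genes of 1 count in 1 library kept (adjusted p 0.0844, limma-voom). Library size alone moved the median log2 difference of all genes from TN to 0.24, 0.23, 0.29 and 0.29 in PRTN, BUTN, TNPR and TNBU and the share of higher calls from 60.9% to 71.2% in BUTN, 59.6% to 69.8% in TNPR, 60.2% to 72.0% in TNBU and, for TN against Ctrl, from 58.9% to 44.3%. For TNBU against BUTN that share went from 35.4% to 45.9%. The cause was not tested.

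Same-numbered replicates deviated together with correlations of -0.079 to 0.240 over 15 pairs of groups, 1 of them over 0.1, so the numbers were not read as pairs. With the replicate block, 4 genes were called in TN against Ctrl, 5, 4, 5 and 5 in PRTN, BUTN, TNPR and TNBU against TN, 4 in each of these against Ctrl, and 1 in each comparison of timing, as without it. Genes with few counts, SERPINB2 above all, are limited by depth.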

Other observations

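Genes whose levels over the 12 libraries ran most like those of the chosen genes were sought among 12973 protein-coding genes, by the root mean square difference of centred log2 CPM. PLAU was nearest to LAD1 (0.199) and to LIF (0.214), a cytokine, with Pearson's r of 0.984 and 0.988 over the 12 libraries. PLAT was nearest to SYT7 (0.150) and TMOD2 (0.171), with r of 0.996 and 0.995. PLAUR was nearest to RASEF (0.105) and to TRAF3 (0.113), an adaptor of TNF receptor family members, with r of 0.939 and 0.929. SERPINE2 was nearest to NRP2 (0.173) and DCBLD1 (0.176), with r of 0.987 and 0.977. SERPINB8 was nearest to AMIGO2 (0.149) and to IL7R (0.183), the interleukin-7 receptor, with r of 0.993 and 0.998. The points are libraries that fall into groups with and without an SCFA, and the values describe likeness of course and nothing more. By Pearson's r alone the nearest genes were PPP4R1 for PLAU, CYP24A1 for PLAT, TRABD2A for PLAUR, NABP1 for SERPINE2 and IL7R for SERPINB8.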
